A study of Mus musculus with 6 samples.

Results

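The transcripts described here are those of 9 mouse genes that move glucose and lactate across membranes: the facilitative glucose transporter genes Slc2a1, Slc2a3, Slc2a4, Slc2a6 and Slc2a8, the monocarboxylate transporter genes Slc16a1, Slc16a3 and Slc16a7, and Bsg, which encodes their chaperone basigin. They were taken by name from the deposited gene table, where 9 of 23358 rows carried these names. RNA came from N1E115 cells, a mouse neuroblastoma line of sympathetic neuron character marked NOS1+ in the labels, that is, positive for neuronal nitric oxide synthase. Growth was for 3 days in either 20% oxygen, the ambient level, or 4% oxygen, with 3 libraries at each level numbered 1 to 3 in both groups and no other treatment or genetic change named. Whether each library was made from its own culture is not stated in the labels, so the tests below rest on a spread between libraries that could be technical. The labels pose the comparison of low with ambient oxygen.

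Glucose enters cells down its gradient through the GLUT proteins. GLUT1 (Slc2a1) serves basal uptake in most tissues and GLUT3 (Slc2a3) is the high-affinity form typical of neurons. Monocarboxylate transporters carry lactate together with a proton: MCT1 (Slc16a1) works in both directions, MCT4 (Slc16a3) is the exporter typical of cells with high glycolytic flux, and MCT2 (Slc16a7) is the high-affinity importer of neurons. MCT1 and MCT4 reach the plasma membrane with basigin. When oxygen is low, hypoxia-inducible factors bind DNA at the short core ACGTG or GCGTG, and Slc2a1 and Slc16a3 are textbook targets of this response.

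Promoter windows are shown for the pair of genes with the highest fold changes and for Slc16a1, the lactate transporter gene with no such change, because all of them hold the letters ACGTG. Each window runs 5′ to 3′ on the strand of the gene, from 250 bases before to 50 bases after the RefSeq start (build GRCm38.p6, the assembly of mm10), and capitals mark ACGTG read on either strand. For Slc2a1 the window is chr4:119108495-119108794 (plus strand), for Slc16a3 chr11:120948817-120949116 (plus strand) and for Slc16a1 chr3:104638414-104638713 (plus strand).
Slc2a1: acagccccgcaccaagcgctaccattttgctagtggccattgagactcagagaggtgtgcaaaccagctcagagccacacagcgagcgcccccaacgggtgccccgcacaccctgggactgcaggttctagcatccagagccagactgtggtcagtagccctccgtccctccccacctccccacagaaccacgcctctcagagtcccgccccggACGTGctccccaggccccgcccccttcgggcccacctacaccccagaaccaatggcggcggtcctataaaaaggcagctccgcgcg
Slc16a3: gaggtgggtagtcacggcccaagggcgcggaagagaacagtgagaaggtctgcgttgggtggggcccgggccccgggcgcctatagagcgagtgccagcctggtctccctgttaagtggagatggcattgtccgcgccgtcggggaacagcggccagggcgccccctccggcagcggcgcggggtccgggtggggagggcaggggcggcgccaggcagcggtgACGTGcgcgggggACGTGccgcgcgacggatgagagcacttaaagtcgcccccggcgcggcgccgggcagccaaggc
Slc16a1: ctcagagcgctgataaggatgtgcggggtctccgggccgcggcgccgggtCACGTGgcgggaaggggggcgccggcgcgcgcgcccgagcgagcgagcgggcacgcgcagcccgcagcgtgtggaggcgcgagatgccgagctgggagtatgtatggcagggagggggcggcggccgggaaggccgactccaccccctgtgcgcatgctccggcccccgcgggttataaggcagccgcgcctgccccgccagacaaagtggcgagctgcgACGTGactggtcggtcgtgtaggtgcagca
In Slc2a1 the core began 36 bases before the start, and in Slc16a3 it began 27 and 14 bases before the start. In Slc16a1 it lay inside the palindrome CACGTG that begins 200 bases before the start, where it reads on both strands, and again 20 bases after the start. The RefSeq start of Slc16a3 lies 583 bases downstream of the start of its deposited row, while those of Slc2a1 and Slc16a1 lie 0 and 4 bases from it. Windows were at hand for 5 of the 9 genes (also Slc2a6 and Slc2a8, but not Slc2a3, Slc2a4, Slc16a7 or Bsg), and these letters occur in 3 of the 5. Of all 32851 RefSeq promoter windows of this length 19.6% hold ACGTG on either strand, so a match by itself is common. GCGTG was found in the windows of Slc2a1, Slc2a6, Slc2a8 and Slc16a1 and in 32.4% of all windows, and CACGTG, which contains ACGTG, in that of Slc16a1 and in 7.15% of all windows. A match is a description of the letters and was not tested as a binding site.

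The libraries held 124259152 to 163695286 counts over genes. Over the 14979 genes tested, edgeR's quasi-likelihood test (Benjamini-Hochberg adjusted) called 0.0% of genes higher and 0.0% lower at 4% oxygen at an adjusted p under 0.05; at an unadjusted p under 0.05 it found 451 higher (3.01%) and 213 lower (1.42%). DESeq2 called 53 higher (0.354%) and 6 lower (0.0401%), edgeR with no filter on low counts 25 higher (0.133%) and 2 lower (0.0107%), and edgeR with the replicate number as a block 11 higher (0.0734%) and 0 lower. The 9 sympathoadrenal markers reported here exceeded 1 CPM (counts scaled to library size with TMM factors) in every library. Astrocyte, immune, fibroblast, glial and endothelial lists of 5 genes each summed to at most 12.2 CPM in any library. The summed sympathoadrenal markers ran from 3292 to 3619 CPM at 20% oxygen and from 4917 to 6216 CPM at 4% oxygen, most of it the granule protein gene Chgb, and the part of this shift in the values below was not tested. Replicate 1 at 20% oxygen stood apart: its log2 CPM values correlated across genes at 0.955 with both other libraries of its group, which correlated at 0.976 with each other. In bulk RNA, more transcript per cell and more cells with the transcript cannot be told apart. For the 9 genes, values that move most without that library are given both ways.

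Of the 9 genes, 8 passed the filter on low counts and Slc16a7 did not. The median log2 fold change of these 8, 4% over 20% oxygen, was 0.56 and 6 estimates were above 0. Over all genes tested the median was -0.03 and 7085 of 14979 estimates were above 0. With edgeR 0 of the 8 passed over all genes. At an unadjusted p under 0.05, 3 were higher (Slc2a1, Slc2a3 and Slc16a3) and none was lower, beside 3.01% and 1.42% of all genes tested. In the same 3 genes all libraries at 4% oxygen lay above all at 20% oxygen, which held for 6.33% of all genes tested (3.72% in the other direction). These 3 genes did not overlap between groups under any of the 3 scalings tried. Of the 14979 genes, 948 lay higher and 557 lower without overlap with TMM. The numbers were 850 and 658 with DESeq2 size factors, and 1191 and 371 with library totals. DESeq2 and edgeR with no filter each called Slc2a1 and Slc16a3 higher, against 0.354% and 0.133% of all genes, and edgeR with the replicate block called Slc2a1, against 0.0734%.

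**Figure D1:**
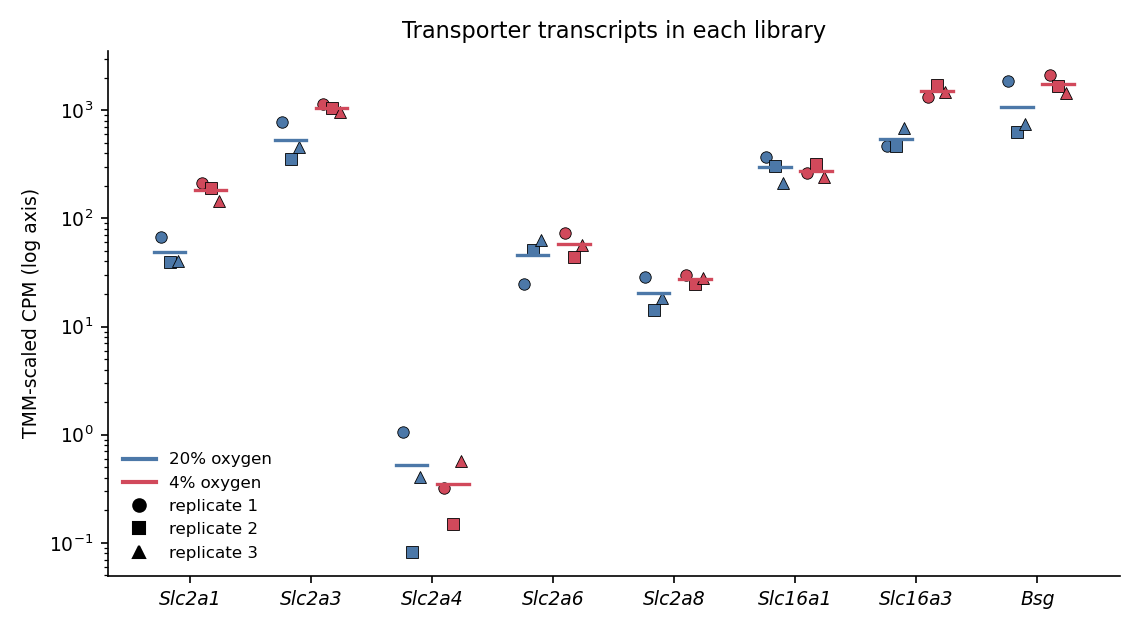
TMM-scaled CPM of the 8 tested genes in each library, on a log axis, with 20% oxygen in blue and 4% oxygen in red; symbols mark the replicate number and horizontal lines the group means. The red points of Slc2a1, Slc2a3 and Slc16a3 lie wholly above the blue ones, and the circle of 20% oxygen replicate 1 stands high for Bsg (1869 CPM) and low for Slc2a6 (24.9 CPM).

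Among the glucose transporters, Slc2a1 (chromosome 4, 119108745 to 119137329 in mm10) had the highest fold change. In ambient replicates 1, 2 and 3 it stood at 67.4, 39.7 and 40.7 CPM, and under 4% oxygen at 212, 193 and 146 CPM. The lowest library at 4% oxygen thus held more than the highest at 20% oxygen, which was replicate 1. Mean levels of 49.3 ± 15.7 and 184 ± 34.1 CPM (SD, n = 3) gave a 3.73-fold difference or a log2 fold change of 1.90 (SE 0.29), rank 13 among the 10335 genes that averaged 5 CPM or more. The edgeR adjusted p was 0.112 over all genes and 0.0222 with the replicate block, and over all alternatives it ran from 5.09e-06 (DESeq2) to 0.502 (edgeR without 4% oxygen replicate 3). Without 20% oxygen replicate 1 the log2 fold change was 2.19 (SE 0.26; edgeR adjusted p = 0.0598). Each same-numbered pair went the same way, at 3.15-fold, 4.85-fold and 3.59-fold, and 17.3% of all genes tested were higher (14.3% lower) in all 3 pairs. In GENCODE release M21, 105 of the 3506 exonic bases of Slc2a1 overlap the antisense transcript Gm12868, and reads of the pair cannot be told apart there because strand use in counting is not given in the sources used here.

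Slc2a3 (chromosome 6, 122727809 to 122742745), the neuronal glucose transporter gene, was the most abundant of the family. Ambient replicates 1, 2 and 3 held 783, 354 and 454 CPM, and the 4% oxygen libraries 1146, 1048 and 959 CPM. The 4% oxygen libraries lay close together, while replicate 1 at 20% oxygen lay between the other ambient libraries and the 4% group. Mean levels were 530 ± 224 and 1051 ± 93.4 CPM (SD, n = 3). Its log2 fold change, 0.99 with an SE of 0.29, missed the threshold (edgeR adjusted p = 0.732). Without 20% oxygen replicate 1 the log2 fold change was 1.38 (SE 0.23), again not past the threshold (edgeR adjusted p = 0.0897, and 0.0897 or more in every alternative run).

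The remaining glucose transporter genes overlapped between the oxygen levels. Slc2a8 (chromosome 2, 32972989 to 32982056), which encodes the largely intracellular GLUT8, had 28.7, 14.3 and 18.5 CPM at 20% oxygen and 30.2, 24.98 and 28.1 CPM at 4% oxygen. Only replicate 1 of the ambient libraries reached the 4% range. Its log2 fold change was 0.44 (SE 0.29; edgeR adjusted p = 0.996) with all libraries and 0.76 (SE 0.25; edgeR adjusted p = 0.41) without that replicate. Slc2a6 (chromosome 2, 27021365 to 27027998), which encodes the lysosomal GLUT6, ran the other way in the same library. It had 24.9, 50.8 and 63.5 CPM at 20% oxygen against 73.4, 43.8 and 56.5 CPM at 4% oxygen, so that the groups overlapped widely. The log2 fold change of Slc2a6 was 0.32 (SE 0.34; edgeR adjusted p = 0.996), and leaving out ambient replicate 1 made it 0.02, low-oxygen replicate 1 0.09 and ambient replicate 3 0.62. Slc2a4 (chromosome 11, 69942286 to 69948190), the insulin-responsive transporter gene of muscle and fat, was near the floor, with 138, 10 and 54 counts at 20% oxygen and 44, 24 and 88 counts at 4% oxygen. The estimate was -0.58 on the log2 scale (SE 0.85) with all libraries and 0.51 when ambient replicate 1 was left out, so no direction could be given at this depth.

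The lactate transporter genes behaved unequally. Slc16a3 (chromosome 11, 120948484 to 120959000), the gene of the exporter MCT4, stood at 469.6, 469.0 and 686 CPM in ambient replicates 1, 2 and 3 and at 1330, 1721 and 1488 CPM under 4% oxygen. All libraries at 4% oxygen stood well above the ambient ones, and here replicate 1 was not set apart from its group. Mean levels of 541 ± 124.8 and 1513 ± 197 CPM (SD, n = 3) gave a 2.79-fold difference or a log2 fold change of 1.48 (SE 0.24), rank 34 among the 10335 genes. The edgeR adjusted p was 0.112, and 0.0609 with the replicate block; over all alternatives it ran from 0.000444 (DESeq2) to 0.70 (edgeR without 4% oxygen replicate 3). The same-numbered pairs differed by 2.83-fold, 3.67-fold and 2.17-fold, each higher at 4% oxygen. Of all genes tested, 17.3% were higher and 14.3% lower in every such pair.

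Slc16a1 (chromosome 3, 104638668 to 104658462), the gene of the bidirectional MCT1, had 373, 305 and 215 CPM at 20% oxygen and 264, 322 and 240 CPM at 4% oxygen. The groups overlapped throughout. Its log2 fold change was -0.11 (SE 0.26; edgeR adjusted p = 0.996), between -0.30 and 0.08 when each library was left out in turn, with the value above 0 found without 20% oxygen replicate 1. Slc16a7 (chromosome 10, 125227485 to 125328535), the gene of the neuronal importer MCT2, had 0 counts in all 6 libraries. All counts were even, as if each read pair added 2, so the limit that a count of 0 allows was taken as 3 pairs or 6 counts. Its level was then at most 0.0367 to 0.0483 CPM per library, which covers counting error only.

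Bsg (chromosome 10, 79704358 to 79711979), the chaperone gene, had the highest mean CPM of the 9 at both oxygen levels. Ambient replicates 1, 2 and 3 held 1869, 630 and 754 CPM, against 2141, 1668 and 1455 CPM under 4% oxygen. Replicate 1 at 20% oxygen lay inside the 4% range and the other ambient libraries lay far below it. The log2 fold change was 0.69 (SE 0.37; unadjusted p = 0.087 and adjusted p = 0.996 with edgeR), and 1.34 (SE 0.25; unadjusted p = 0.000203 and adjusted p = 0.0962) without that library, when 5.79% of all genes had an unadjusted p under 0.05 and a higher level. Bsg was higher at 4% oxygen in each same-numbered pair, at 1.15-fold, 2.65-fold and 1.93-fold, as were 17.3% of all genes tested (14.3% were lower in each). With the replicate block the log2 fold change of Bsg was 0.85 (SE 0.26; edgeR adjusted p = 0.366). Without 20% oxygen replicate 1, 5 of the 8 tested genes had an unadjusted p under 0.05 with edgeR, namely Slc2a1, Slc2a3, Slc2a8, Slc16a3 and Bsg, all higher, and 0 passed after adjustment over all genes. That fit kept 4% oxygen replicate 1, the highest 4% library for Bsg, Slc2a1, Slc2a3 and Slc2a8 and the lowest for Slc16a3. For single genes no fit without replicate 1 in both groups was run.

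**Figure D2:**
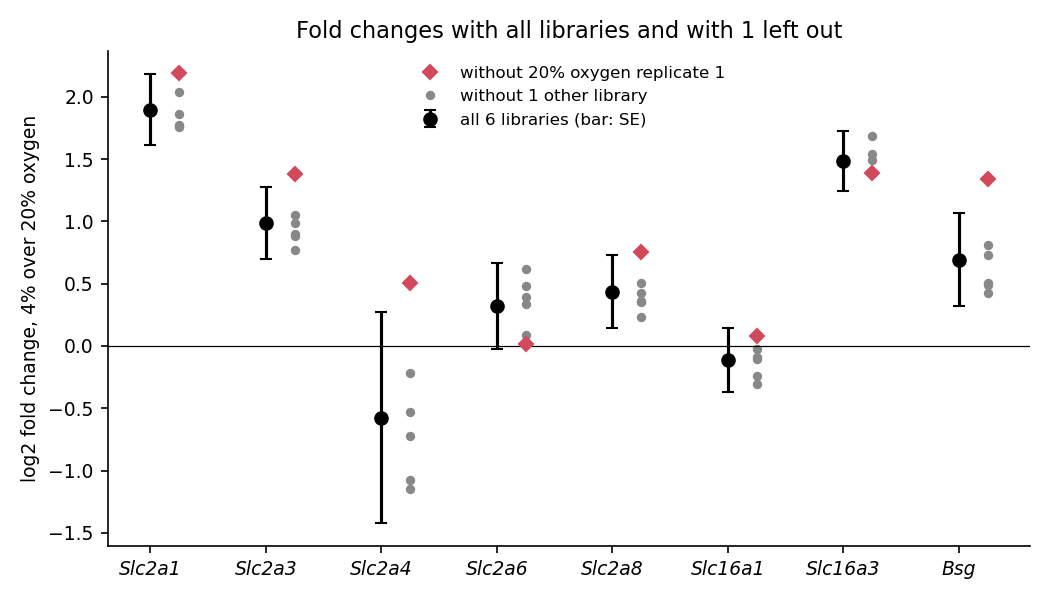
Log2 fold changes, 4% over 20% oxygen, from edgeR for the 8 tested genes; black points with SE bars use all 6 libraries, red diamonds leave out 20% oxygen replicate 1 and grey dots leave out 1 other library. Slc2a1 (1.76 to 2.19) and Slc16a3 (1.38 to 1.69) stay well above 0 in these fits, Bsg ranges from 0.42 to 1.34, and Slc2a4 and Slc16a1 lie on both sides of 0.

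Within the ambient group, replicate 1 differed from the mean of replicates 2 and 3 by 2.70-fold for Bsg, 1.94-fold for Slc2a3, 1.75-fold for Slc2a8 and 1.68-fold for Slc2a1 in CPM. For Slc16a1 the ratio was 1.44, for Slc16a3 it was 0.814, and for Slc2a6 it was 0.435. Of the same 10335 genes, 16.1% were at least 1.5-fold above that mean in replicate 1 and 21.2% at least 1.5-fold below it. Departures of 1.5-fold were thus common in this library, but how many genes departed as far as Bsg or Slc2a6 was not counted. The departures of replicate 1 were noticed after the values were seen.

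Levels were compared between genes per length, on the RPKM scale (reads scaled to the deposited gene length and to library size). At 20% oxygen the order was Bsg (382 ± 241 RPKM), Slc16a3 (129 ± 21.2), Slc2a3 (82.5 ± 34.8), Slc16a1 (41.9 ± 12.6), Slc2a6 (13.3 ± 5.35), Slc2a1 (11.8 ± 3.84), Slc2a8 (6.06 ± 2.17), Slc2a4 (0.112 ± 0.111) and Slc16a7 at 0 (SD, n = 3). The ranges of Slc16a3 and Slc2a3 overlapped, as did those of Slc2a6 and Slc2a1, so these neighbours were not separated by their spread. Slc2a6 (7.21 to 17.1 RPKM) also overlapped Slc2a8 (4.55 to 8.54 RPKM). At 4% oxygen the mean RPKM was 648 ± 84.4 for Bsg, 384 ± 65.0 for Slc16a3, 173 ± 3.97 for Slc2a3, 46.2 ± 5.97 for Slc2a1, 40.6 ± 6.38 for Slc16a1, 17.6 ± 3.73 for Slc2a6, 8.68 ± 0.737 for Slc2a8 and 0.0817 ± 0.0545 for Slc2a4 (SD, n = 3). Slc2a1 thus moved from beside Slc2a6 to beside Slc16a1, whose ranges it overlapped at 20% and at 4% oxygen respectively.

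Shares within a library do not depend on how libraries are scaled. Slc2a1 made up 10.5%, 11.4% and 9.35% of the summed RPKM of the 5 glucose transporter genes in 20% oxygen replicates 1, 2 and 3, and 19.6%, 20.1% and 16.7% at 4% oxygen. The groups did not overlap, and replicate 1 at 20% oxygen was not apart in this measure. The means were 10.4% ± 1.03 and 18.8% ± 1.83 (SD, n = 3; exact two-sided permutation p = 0.1, the smallest that 3 libraries against 3 allow; 0.125 adjusted over the 5 within-library measures). Slc2a3 held the bulk of the family at both levels, 71.0% ± 7.17 and 70.4% ± 1.47. Slc2a6 held 4.66%, 17.6% and 17.6% at 20% oxygen and 8.17%, 5.51% and 7.79% at 4% oxygen, and Slc2a8 held 5.28% ± 0.227 and 3.55% ± 0.389 (SD, n = 3).

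Slc16a3 supplied most of the monocarboxylate transporter RPKM in every library. Its share was 68.4%, 72.5% and 84.6% at 20% oxygen and 89.6%, 90.2% and 91.4% at 4% oxygen, with the rest from Slc16a1. Ambient libraries were spread out and the 4% libraries were nearly alike. The means were 75.2% ± 8.42 and 90.4% ± 0.902 (SD, n = 3; exact two-sided permutation p = 0.1, adjusted 0.125). Summed over the family, RPKM averaged 171 ± 8.76 at 20% oxygen and 425 ± 70.3 at 4% oxygen, and the glucose transporter sum averaged 114 ± 35.5 and 245 ± 9.96 (SD, n = 3).

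**Figure D3:**
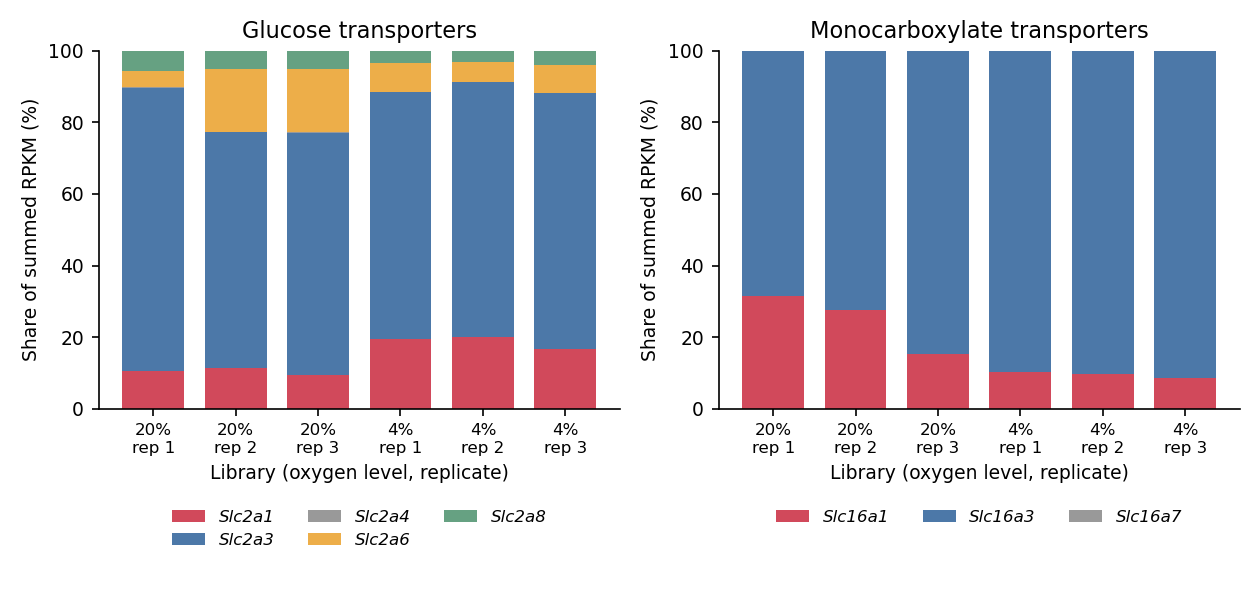
Share of each gene in the summed RPKM of the 5 glucose transporter genes (left) and the 3 monocarboxylate transporter genes (right), in percent, with 1 bar per library. The Slc2a1 band goes from 9.35% to 11.4% at 20% oxygen to 16.7% to 20.1% at 4% oxygen, and the Slc16a1 band is narrowest, 8.60% to 10.4%, in the 4% oxygen libraries.

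Ratios within a library tested whether paired genes differed in their response. The log2 RPKM ratio of Slc2a1 to Slc2a3 was -2.92, -2.53 and -2.86 at 20% oxygen and -1.81, -1.82 and -2.09 at 4% oxygen. All ratios at 4% oxygen were higher, with a mean difference of 0.86 (exact two-sided permutation p = 0.1, n = 3 per group, adjusted 0.125). For Slc16a3 over Slc16a1 the log2 ratio was 1.11, 1.40 and 2.46 at 20% oxygen and 3.11, 3.20 and 3.41 at 4% oxygen. Replicate 3 was the nearest of the ambient libraries to the 4% group, and the mean difference was 1.58 (exact two-sided permutation p = 0.1, n = 3 per group, adjusted 0.125).

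The carrier transcripts (Slc16a1, Slc16a3 and Slc16a7 summed) relative to Bsg gave log2 ratios of -2.00, -0.52 and -0.45 at 20% oxygen and -1.09, -0.36 and -0.39 at 4% oxygen. Replicate 1 was lowest in both groups, and the groups overlapped. The mean difference of 0.38 (exact two-sided permutation p = 0.5, n = 3 per group, adjusted 0.5) became -0.13 without 20% oxygen replicate 1. The ratio was higher at 4% oxygen in 3 of 3 same-numbered pairs (exact two-sided sign-flip permutation p = 0.25, the smallest that 3 pairs allow). With replicate 1 left out of both groups, a setting added after the data were seen, the difference was 0.11.

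**Figure D4:**
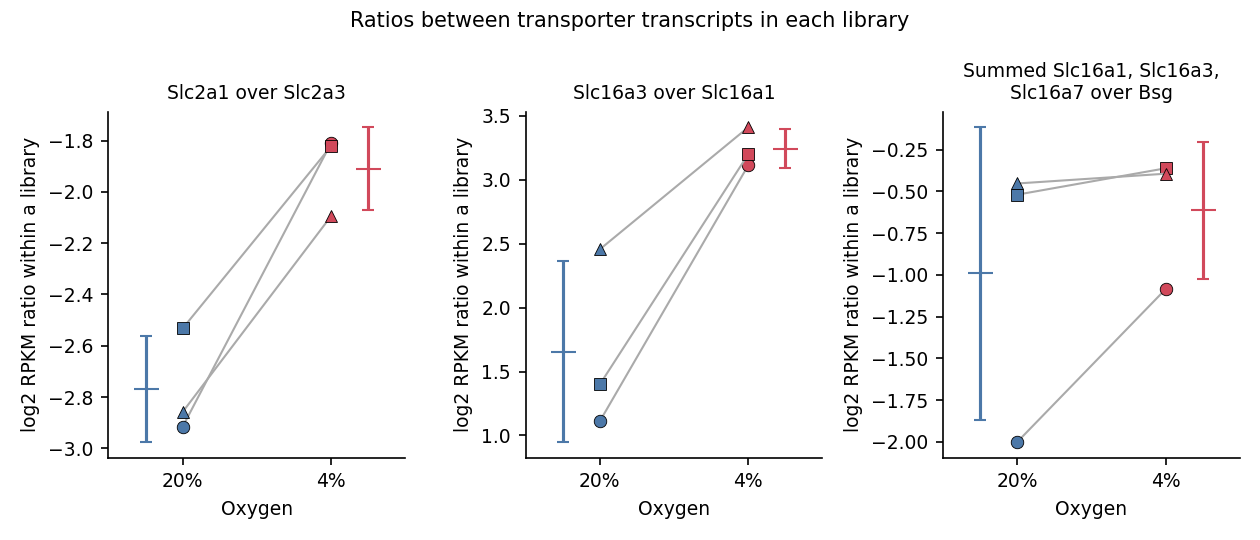
Log2 RPKM ratios within each library at 20% oxygen (blue) and 4% oxygen (red), with symbols for replicates 1 (circle), 2 (square) and 3 (triangle), grey lines joining same-numbered libraries, and group means with SD bars at the sides; each panel has its own axis. The mean difference is 0.86 for Slc2a1 over Slc2a3 and 1.58 for Slc16a3 over Slc16a1, while the carrier to Bsg ratio of replicate 1 lies lowest at both oxygen levels.

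Other genes of sugar and lactate transport were taken from 4 lists. Of 11 further glucose and polyol transporter genes 6 were tested and 0 had an unadjusted p under 0.05 with edgeR in either direction (median log2 fold change -0.06). Over all genes tested 3.01% were higher and 1.42% lower at that threshold. Without 20% oxygen replicate 1 the median was 0.26 and 1 gene, Slc2a9, was higher, beside 5.79% of all genes. The urate and hexose transporter gene Slc2a9 averaged 6.46 ± 1.55 and 8.76 ± 1.41 CPM at 20% and 4% oxygen, while the sodium-coupled glucose transporter genes Slc5a1 and Slc5a2 were at most 3.27 CPM and 0.496 CPM in any library. Of 15 further monocarboxylate transporter and chaperone genes 14 were tested, 0 were higher and 1 was lower at an unadjusted p under 0.05 (median log2 fold change 0.18). The latter, Slc16a10, which encodes an aromatic amino acid transporter, had 12.2, 15.0 and 11.4 CPM at 20% oxygen and 7.70, 9.55 and 7.38 CPM at 4% oxygen. Its groups did not overlap and its log2 fold change was -0.65 (SE 0.27; edgeR adjusted p = 0.996). Slc16a13 averaged 4.51 ± 2.58 and 7.53 ± 1.07 CPM, and Slc16a6 20.8 ± 6.11 and 27.9 ± 1.90 CPM (SD, n = 3). The groups of Slc16a6 did not overlap either, with 4% oxygen higher, while those of Slc16a13 did. Over all genes tested 6.33% were higher and 3.72% lower without overlap. The log2 fold changes of Slc16a13 and Slc16a6, 0.74 and 0.43, were 0.33 and 0.21 without 20% oxygen replicate 1.

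Emb, which encodes embigin, an alternative chaperone of monocarboxylate transporters and the usual partner of MCT2, was named after its values were seen. It had 625, 758 and 582 CPM at 20% oxygen and 749, 642 and 519.6 CPM at 4% oxygen. These groups overlapped throughout (log2 difference -0.04, SE 0.23; edgeR adjusted p = 0.996).

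Among 13 genes of glucose phosphorylation and lactate handling 9 were tested, 3 were higher and 0 lower at an unadjusted p under 0.05 with edgeR, and 0 passed after adjustment. Over all genes tested 3.01% were higher and 1.42% lower at that unadjusted threshold. Ldha, the lactate dehydrogenase A subunit gene, had 1871, 1658 and 2406 CPM at 20% oxygen and 3322, 4245 and 3757 CPM at 4% oxygen. Its groups did not overlap (log2 difference 0.93, SE 0.22; edgeR adjusted p = 0.525); processed pseudogenes of Ldha may share its reads. Hk1, the hexokinase gene of most tissues, averaged 247 ± 58.5 and 393 ± 34.6 CPM without overlap (log2 fold change 0.67, SE 0.24; edgeR adjusted p = 0.996). Hk2, the inducible hexokinase gene, had 66.1, 265 and 54.8 CPM at 20% oxygen and 249, 373 and 304 CPM at 4% oxygen, so that ambient replicate 2 lay inside the 4% range. Its log2 fold change was 1.26 (SE 0.51, edgeR adjusted p = 0.996) with all libraries. The value was 0.95 without 20% oxygen replicate 1 and 2.36 (SE 0.30, edgeR adjusted p = 0.0601) without 20% oxygen replicate 2. Without 20% oxygen replicate 1, 2 of this list (Hk1 and Ldha) had an unadjusted p under 0.05 with edgeR and Hk2 did not (unadjusted p = 0.0288 with all libraries and 0.0843 without it), while the log2 fold change of Hk1 was 0.88. The fit without 20% oxygen replicate 1 tested 11 genes of this list, and Hk1 and Ldha were higher in it. Of all genes tested in that fit, 5.79% were higher and 3.01% lower at the same unadjusted threshold. Ldhb, the lactate dehydrogenase B subunit gene, named after its values were seen, had 0 counts in 5 libraries and 12 counts in 4% oxygen replicate 1. Of 12 genes that act on glucose transporter trafficking 11 were tested and 0 had an unadjusted p under 0.05 with edgeR (median log2 fold change -0.02). Txnip encodes an arrestin that drives internalisation of GLUT1. It had 44.0, 2.71 and 36.9 CPM at 20% oxygen and 67.5, 42.8 and 40.6 CPM at 4% oxygen. Ambient replicate 2 thus lay far below its group. For Txnip the log2 fold change was 0.85 (SE 0.68) with all libraries. Dropping that low ambient library reduced the estimate to 0.32 (SE 0.32), while dropping ambient replicate 1 raised it to 1.34. The retromer gene Vps35 averaged 345 ± 36.8 and 252 ± 82.8 CPM, and Rab8a 52.0 ± 14.7 and 56.0 ± 5.91 CPM.

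The genes with the profiles nearest to those of Slc2a1 and Slc16a3 were found over the 6 libraries by the root-mean-square difference of log2 CPM centred on each gene's mean, among 10335 genes. Nearest to Slc2a1 were Rtl1, an imprinted gene derived from a retrotransposon, at 0.245 log2 units, Plod2, a lysyl hydroxylase gene, at 0.27, P4ha2, a collagen prolyl hydroxylase subunit gene, at 0.377, the glycogen branching enzyme gene Gbe1 at 0.385 and Ndrg2 at 0.394. All 5 had replicate 1 as the highest ambient library, as Slc2a1 did, which their choice by profile over these same libraries favours. Rtl1 has an antisense partner whose reads cannot be told apart without strand. Nearest to Slc16a3 were Higd1a, a gene of a mitochondrial membrane protein, at 0.184, the glycogen synthase gene Gys1 at 0.19, the anti-Müllerian hormone receptor gene Amhr2 at 0.196, 5330426P16Rik at 0.199 and the cadherin gene Cdh22 at 0.225. All 5 had replicate 3 as the highest ambient library, as Slc16a3 did, and here too the choice by profile favours this. The profiles of Slc2a1 and Slc16a3 differed from each other by 0.476, which placed Slc16a3 at rank 21 from Slc2a1 and Slc2a1 at rank 146 from Slc16a3.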

How the data were processed

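RNA sequencing counts were taken from a table of 23358 gene rows for 6 libraries of N1E115 cells. Per the file headers, the authors deposited raw gene counts with RPKM beside them. Bowtie, TopHat2 2.0.6, HTSeq and the mm10 build appear in the submitters' processing notes without roles; how reads were counted, on which strand and against which annotation is not stated there. Every count was even (100%), so each pair seems to have added both mates. RPKM, as deposited by the authors, divides counts by the deposited length and by a library total of which gene counts made up 57.6% to 67.8%. The labels disagree on the kit: the series text names a stranded total RNA kit and the extraction protocol an mRNA kit.

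The counts were fitted with edgeR 4.0.16 under R 4.3.3: filterByExpr (minimum count 10, minimum total 15), TMM scaling and the quasi-likelihood test of 4% against 20% oxygen without covariates, two-sided, with Benjamini-Hochberg adjustment over all 14979 genes tested and a threshold of 0.05. Standard errors were derived from the log2 fold change and the F statistic. Alternatives were DESeq2 size factors, library totals, no filter, DESeq2 1.42.0, limma-voom (limma 3.58.1), the replicate number as a block and each library left out. The procedure was tested on simulated data. Replicate numbers are in the labels without a meaning. Deviations from the group means correlated at 0.285, 0.465 and 0.233 between libraries numbered 1, 2 and 3, all above 0.1. The numbers were therefore used to pair libraries in the block and the same-numbered comparisons only. The edgeR fit without covariates and the exact permutation tests between groups left the libraries unpaired. Over same-numbered differences the exact two-sided sign-flip permutation p was 0.25 for each of the 5 within-library measures. Depth was high enough that spread between replicates limits the precision, except for genes near 0.

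The 9 genes, the gene lists and the tests were chosen with earlier results of these data known. Named genes were the 9, the 3 smallest p of each of 4 lists (4 genes matched under an older symbol), and the 5 nearest profiles to Slc2a1 and Slc16a3; others are marked as named after their values were seen. For 1 marker gene the result is not reported here. No transcript of another gene matched those of the 9 at 95% identity over 200 bases in GENCODE release M21. Promoter sequences are from RefSeq on GRCm38.p6.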

Additional observations from a re-analysis of the deposited data

How the results depend on the processing

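The signs of the fold changes of Slc2a1, Slc2a3, Slc2a6, Slc2a8, Slc16a3 and Bsg were the same in all 12 alternatives run. With 1 library left out, log2 fold changes ran from -1.15 to 0.51 for Slc2a4, from -0.30 to 0.082 for Slc16a1 and from -0.11 to 0.23 for Rab8a, turning sign without 20% oxygen replicate 1, and from -0.85 to 0.048 for Slc5a1, turning without 20% oxygen replicate 3. With no filter edgeR called 25 genes higher and 2 lower, among them 2 of the 9 transporter genes (Slc2a1, adjusted p = 0.00387, and Slc16a3, adjusted p = 0.00865). DESeq2 called 53 higher and 6 lower, among them the same 2. With the replicate block, which pairs same-numbered libraries, edgeR called 11 higher, 1 of them a transporter gene (Slc2a1), and changed no other call among the 9. Leaving out each library gave 0 genes higher and 0 to 1 lower, and 0 to 0 transporter genes in either direction; scaling by DESeq2 size factors or library totals and limma-voom gave 0.

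The difference in the Slc2a1 share of the family was 8.41 percentage points by RPKM, 6.11 by counts, and 7.76 to 9.45 with a library left out. For the Slc16a3 share it was 11.9 to 20.0, for Slc2a1 over Slc2a3 0.79 to 0.98 (0.74 without replicate 1 in both groups), for Slc16a3 over Slc16a1 1.31 to 1.98, and for carriers over Bsg -0.13 (without 20% oxygen replicate 1) to 0.65, the last 3 on the log2 scale. The causes of these shifts were not tested. Slc2a4 and Slc16a7 are limited by their low counts.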
